A study of Homo sapiens with 6 samples.

Results

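VGLL1, VGLL4, TEAD1, TEAD3, TEAD4, YAP1, WWTR1, CCN1, CCN2 and AMOTL2, the TEAD transcription factors of the Hippo pathway with their cofactors and 3 of their target genes, were described in cells with and without activation of IGFBP2. The genes were chosen by symbol, and each of the 10 had a row among the 10487 genes of the deposited table. The choice was made from a known readout, because the low VGLL1 level after IGFBP2 activation had been seen in these same libraries. The difference between the groups is therefore a description for these genes. No p-value is given for them. Their standard errors and 95% intervals come from limma, which draws the variance of each gene toward a value shared by all genes. They are therefore not the plain spread of a gene's own libraries, and are narrower than it where that spread is large, as for VGLL1.

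The study sequenced 3′ ends of polyadenylated RNA (QuantSeq FWD) from MDA-MB-468 (MDAMB468), a triple-negative breast cancer line with a high EGFR level, and asked which processes follow raised expression of IGFBP2, a secreted protein that binds insulin-like growth factors. The 3 control libraries carry the genotype label WT. The 3 IGFBP2 overexpression libraries come from MDAMB468 cells that stably carried the lentiviral activator dCas9-VHP with a guide RNA for the IGFBP2 gene, selected with blasticidin and then sorted for the fluorescent marker of the guide. Apart from the selection of these cells, no drug treatment is given for either group in the sources used here. Whether the controls carry the activator or an untargeted guide is not given in the sources used here, so the effect of IGFBP2 and that of transduction, selection and sorting cannot be told apart. The labels call the libraries of a group biological replicates and do not say whether they come from separate transductions.

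TEAD proteins bind DNA but need a cofactor to act on transcription. YAP (YAP1) and TAZ (WWTR1) are the coactivators that the Hippo kinases LATS1 and LATS2 hold out of the nucleus, and the Vestigial-like proteins, VGLL1 and VGLL4 among them, bind TEADs on a surface that overlaps the one used by YAP and TAZ. VGLL4 is known as a repressor that competes with YAP, VGLL1 is known from placenta and from basal-like breast tumours, and CCN1, CCN2 and AMOTL2 are widely used as readouts of YAP and TAZ activity.

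Sequences before the transcription start were examined for the TEAD recognition letters CATTCC, read on either strand, so that GGAATG also counts. Promoter windows from RefSeq (GRCh38.p14, 250 bases before to 50 after a start) existed for 7 of the 10 genes, in 13 windows. There was no entry for TEAD1, TEAD4 and CCN1. The letters were found in 1 window each of VGLL1, CCN2, AMOTL2 and YAP1, and in none of the windows of VGLL4, WWTR1 and TEAD3. The AMOTL2 window with the match belongs to a start inside the annotated gene. The window at the outer AMOTL2 start held 0 matches. Over all 35116 windows of the same length, 14.0% held at least 1 match. The stretches are shown because they carry the letters through which TEADs contact DNA, with the matches in capitals. VGLL1 (chrX:136531965-136532214, plus strand) and CCN2 (chr6:131951373-131951622, minus strand) are given as the bases directly before the start, and AMOTL2 (chr3:134374499-134374528, minus strand) and YAP1 (chr11:102110273-102110302, plus strand) as short stretches around the match.
VGLL1: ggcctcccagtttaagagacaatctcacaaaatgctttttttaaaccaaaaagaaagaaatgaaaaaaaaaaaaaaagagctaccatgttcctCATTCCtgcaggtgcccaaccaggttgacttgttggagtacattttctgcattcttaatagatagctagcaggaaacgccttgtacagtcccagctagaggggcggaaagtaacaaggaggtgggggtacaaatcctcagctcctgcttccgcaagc
CCN2: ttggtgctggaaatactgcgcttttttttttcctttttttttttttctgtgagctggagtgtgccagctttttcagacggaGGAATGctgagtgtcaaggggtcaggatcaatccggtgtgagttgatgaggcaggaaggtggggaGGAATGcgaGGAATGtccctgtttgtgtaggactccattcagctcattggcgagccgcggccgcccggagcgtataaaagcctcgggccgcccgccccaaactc
AMOTL2: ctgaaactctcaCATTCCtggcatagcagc
YAP1: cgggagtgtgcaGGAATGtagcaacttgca
The VGLL1 match began at base -157 from the start. CCN2 held 3 matches, beginning at -169, -104 and -95, and 0.125% of all windows held 3 or more. The AP-1 letters TGANTCA, searched because AP-1 often binds near TEADs, were in 0 of the 13 windows and in 7.71% of all windows. A match describes the letters in a window and no binding was measured.

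IGFBP2, the activated gene, was high in the libraries labelled as overexpressing it. It was at 93.5, 87.3 and 136 CPM (the authors' read count per gene, scaled to a common library size) in the controls and at 566, 1176 and 498 CPM in the others. Reads on the listed genes numbered 2497353 to 4579587 per library. Of 11 epithelial and basal markers, 10 had a row, and their summed level was 4770 to 6292 CPM in the controls and 5357 to 6665 CPM in the overexpression libraries. ESR1 and PGR, the hormone receptors that triple-negative cells lack, had no row, nor had 11 of 12 fibroblast, endothelial and leukocyte markers. The remaining one, COL1A1, was at 12.2 to 27.5 CPM in the controls and 9.36 to 15.8 CPM in the overexpression libraries. The listed markers thus show epithelial cells in both groups.

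VGLL1 (ENSG00000102243, hg38 chrX:136532215-136556807, plus strand) was the member with the largest difference. It was at 69.9, 66.8 and 148 CPM in control replicates 1, 2 and 3. In IGFBP2 overexpression replicates 1, 2 and 3 it was at 15.6, 13.6 and 30.9 CPM. Control replicate 3 was the highest of all, and the highest overexpression library stayed under the lowest control, so the groups did not overlap. The mean was 94.8 ± 45.8 CPM (SD, n = 3) in the controls and 20.0 ± 9.47 CPM (SD, n = 3) after IGFBP2 activation, which is 4.74-fold lower. On the deposited log2(CPM + 1) scale the difference was -2.18 (SE 0.38, 95% interval -3.04 to -1.32). In bulk RNA, fewer cells that express a gene and less RNA per cell cannot be told apart.

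VGLL1 varied between libraries of the same group by more than counting error. VGLL1 was counted with 315, 240 and 365 reads in the controls and with 40, 42 and 94 reads in the overexpression libraries. The exact Poisson 95% intervals ran from 58.6 CPM at the lowest to 164 CPM at the highest in the controls, and from 9.77 to 37.8 CPM in the overexpression libraries. The interval of overexpression replicate 3, 25.0 to 37.8 CPM, lay above those of the other two overexpression libraries. Among the controls the CV was 48.3%, against 5.80% from counting alone, and among the overexpression libraries it was 47.3%, against 14.1%. All 9 pairs of a control and an overexpression library gave a lower VGLL1 value after activation, with log2 differences from -3.35 to -1.09. By the size of its difference VGLL1 ranked 37th of the 10487 genes, and by its spread within groups (SD 0.62 on the log2 scale) it stood at percentile 94.8.

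The limma fit over all genes called 1 of the 10 members at an adjusted p of 0.05, which was VGLL1, beside 0.629% of all genes called in either direction and 0.200% called lower. VGLL1 was picked for its low value in this contrast, so the call is no test of it and nothing is read from the count. With 1 library left out, the log2 difference of VGLL1 was lowest without overexpression replicate 3, at -2.52, and highest without control replicate 3, at -1.81.

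**Figure D1:**
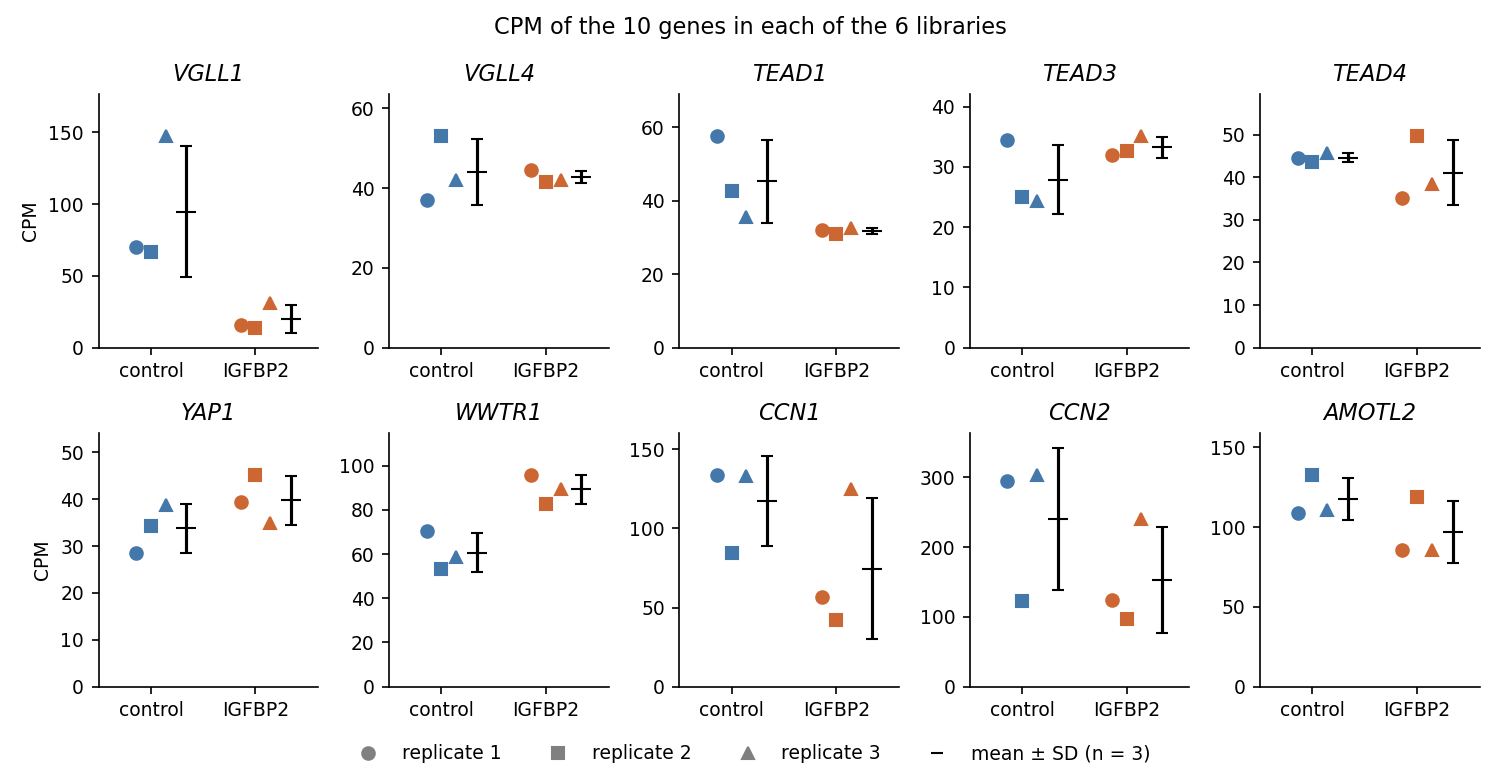
Level of each of the 10 genes (CPM, linear axes from 0) in the 3 control (blue) and 3 IGFBP2 overexpression (orange) libraries. Symbols mark the replicate number and black bars the mean ± SD (n = 3). VGLL1 lies at 66.8 to 148 CPM in the controls and at 13.6 to 30.9 CPM after activation, WWTR1 is higher in every overexpression library, and CCN1 and CCN2 spread widely in both groups.

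VGLL4 (ENSG00000144560, hg38 chr3:11556069-11771350, minus strand), the other Vestigial-like gene with a row, was at a like level in both groups. It was at 37.1, 53.1 and 42.1 CPM in the controls and at 44.4, 41.6 and 42.0 CPM in the overexpression libraries. The overexpression values sat inside the range of the controls, and the log2 difference was -0.03 (SE 0.19, 95% interval -0.47 to 0.41). VGLL2 and VGLL3 had no row and were not analysed here.

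The 2 Hippo-regulated coactivators were both higher on average after activation, WWTR1 by more than YAP1. WWTR1 (ENSG00000018408, hg38 chr3:149517235-149736714, minus strand), which encodes TAZ, was at 70.4, 53.1 and 58.6 CPM in the controls and at 95.9, 82.6 and 89.7 CPM in the overexpression libraries. Every overexpression library lay above every control. The mean went from 60.7 ± 8.81 to 89.4 ± 6.64 CPM (SD, n = 3 each), a ratio of 1.47. The log2 difference was 0.56 (SE 0.19, 95% interval 0.13 to 0.98). The interval is not adjusted for the number of genes, and limma did not call WWTR1 under the main fit or any alternative.

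YAP1 (ENSG00000137693, hg38 chr11:102110447-102233424, plus strand) was at 28.4, 34.2 and 38.8 CPM in the controls and at 39.4, 45.2 and 34.8 CPM in the overexpression libraries. The groups overlapped, as overexpression replicate 3 lay below control replicate 3, and 8 of 9 library pairs were higher after activation. The log2 difference of YAP1 was 0.23 (SE 0.20, 95% interval -0.22 to 0.68).

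The order of the 4 cofactor genes differed between the groups. A 3′ library gives about 1 read per transcript end whatever the length, so CPM values of different genes were set side by side without a length correction. In the controls VGLL1 had the highest mean, 94.8 CPM, ahead of WWTR1 at 60.7, VGLL4 at 44.1 and YAP1 at 33.8 CPM. After activation WWTR1 was first at 89.4 CPM, VGLL4 and YAP1 followed at 42.7 and 39.8 CPM, and VGLL1 was last at 20.0 CPM. In control replicate 1 VGLL1 and WWTR1 stood within 1 CPM of each other, at 69.9 and 70.4 CPM, so the first place of VGLL1 rested on control replicates 2 and 3. VGLL4 and YAP1 did not differ beyond their spread in either group.

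Expressed as a share of the 4-gene sum, VGLL1 made up 34.0, 32.2 and 51.4% in the controls and 7.98, 7.41 and 15.6% in the overexpression libraries. The exact binomial 95% intervals of these shares lay between 28.9 and 55.1% in the controls and between 5.39 and 18.8% after activation, and they cover counting error only. The share of VGLL1 was 39.2 ± 10.6% against 10.3 ± 4.60%, and that of WWTR1 26.8 ± 6.95% against 46.6 ± 2.21% (SD, n = 3 each). Because shares add up to the whole, part of the WWTR1 difference follows from the lower VGLL1 level. The sum of the other three cofactors did not depend on VGLL1, and it was 139 ± 2.43 CPM in the controls and 172 ± 6.91 CPM after activation, of which YAP1 and WWTR1 together made up 94.5 ± 6.26 and 129 ± 5.52 CPM. The counting error of these sums was not computed, and their difference was not tested. RNA shares say nothing of the protein that reaches the TEADs.

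**Figure D2:**
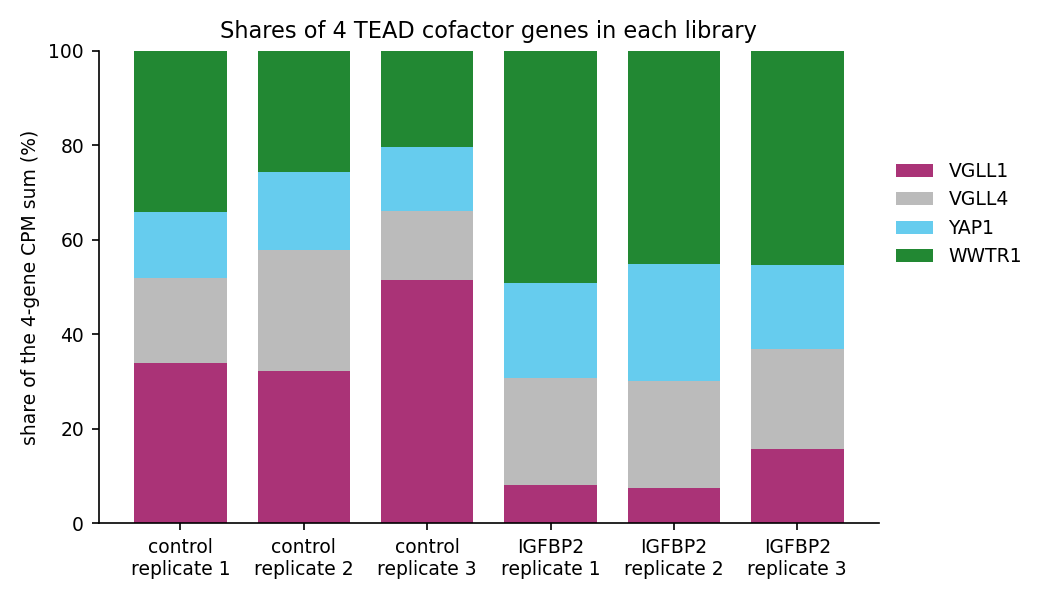
Share of each of the 4 cofactor genes in their summed CPM (percent, stacked to 100) for each library. VGLL1 takes 32.2 to 51.4% in the controls and 7.41 to 15.6% after IGFBP2 activation, while WWTR1 takes the largest share in each overexpression library.

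The TEAD genes themselves differed less than VGLL1, and only TEAD1 had groups that did not overlap. TEAD1 (ENSG00000187079, hg38 chr11:12674421-12944737, plus strand) was at 57.7, 42.6 and 35.6 CPM in the controls and at 32.0, 31.0 and 32.5 CPM in the overexpression libraries. All 9 library pairs were lower after activation and the groups did not overlap, but the nearest pair, 35.6 and 32.5 CPM, was counted with 88 and 99 reads and lay within counting error. The log2 difference was -0.47 (SE 0.21, 95% interval -0.95 to 0.02). The CV of 2.44% among the overexpression libraries was smaller than the 10.4% that counting alone gives, so their closeness says little about the true spread.

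TEAD3 (ENSG00000007866, hg38 chr6:35473597-35497079, minus strand) was at 34.4, 25.0 and 24.3 CPM in the controls and at 32.0, 32.6 and 35.1 CPM in the overexpression libraries. Control replicate 1 lay within the overexpression values and the other two controls below them, with a log2 difference of 0.26 (SE 0.20, 95% interval -0.19 to 0.71). TEAD4 (ENSG00000197905, hg38 chr12:2959330-3040676, plus strand) was at 44.4, 43.7 and 45.7 CPM in the controls and at 35.1, 49.7 and 38.4 CPM in the overexpression libraries. The overexpression values of TEAD4 fell on both sides of the controls, and the log2 difference was -0.13 (SE 0.19, 95% interval -0.57 to 0.31).

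TEAD2, the fourth TEAD gene and not one of the 10, was at 44.2, 72.6 and 81.3 CPM in the controls and at 60.8, 58.1 and 58.5 CPM in the overexpression libraries (log2 difference -0.11, SE 0.24, limma adjusted p = 0.895). It had the highest mean of the 4 TEAD genes in both groups. In control replicate 1, however, it lay below TEAD1 at 57.7 CPM and TEAD4 at 44.4 CPM. TEAD1 and TEAD4 came next in the controls, at 45.3 and 44.6 CPM, and did not differ beyond their spread, and TEAD3 was lowest at 27.9 CPM. After activation TEAD4 was at 41.1 CPM and TEAD3 and TEAD1 were at 33.2 and 31.8 CPM, again within their spread. The 4 TEAD genes summed to 184 ± 3.05 CPM in the controls and 165 ± 5.81 CPM after activation (SD, n = 3 each). The sums did not overlap, at 181 to 187 CPM in the controls and 160 to 171 CPM after activation. Of all genes, taken singly, 18.0% had groups that did not overlap. The counting error of the sums was not computed, so their small SD says little about the true spread. The difference between the sums was not tested.

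CCN1 and CCN2, which encode secreted matricellular proteins, and AMOTL2, which encodes an angiomotin that binds YAP, were lower on average, with overlapping groups. CCN2 (ENSG00000118523, hg38 chr6:131948176-131951372, minus strand), the gene with 3 TEAD matches, was at 295, 123 and 304 CPM in the controls and at 124, 96.5 and 240 CPM in the overexpression libraries. Control replicate 2 was as low as overexpression replicate 1, and overexpression replicate 3 was close to the other controls. The mean was 241 ± 102 against 154 ± 76.0 CPM (SD, n = 3 each), and the log2 difference was -0.64 (SE 0.42, 95% interval -1.59 to 0.31).

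CCN1 (ENSG00000142871, hg38 chr1:85580761-85584589, plus strand) was at 134, 84.3 and 133 CPM in the controls and at 56.5, 42.3 and 125 CPM in the overexpression libraries. The same libraries stood apart as for CCN2, with control replicate 2 low and overexpression replicate 3 high for their groups. The log2 difference was -0.77 (SE 0.38, 95% interval -1.63 to 0.10). Single libraries decided its size: it was -1.21 without overexpression replicate 3, and the range over the libraries left out was -1.21 to -0.44 for CCN1 and -1.07 to -0.36 for CCN2.

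The profiles of CCN1 and CCN2 were close to each other, with a root mean square difference of 0.229 between their 6 centred log2 values. Their spread within groups was at percentiles 94.9 and 97.0 of all genes and was far above counting error, as each library held at least 131 reads for CCN1 and 299 for CCN2. The VGLL1 profile was 0.780 from CCN1 and 0.856 from CCN2 on the same measure.

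AMOTL2 (ENSG00000114019, hg38 chr3:134355347-134375479, minus strand) was at 109, 133 and 111 CPM in the controls and at 85.4, 119 and 85.4 CPM in the overexpression libraries. Replicate 2 was the highest in both groups, and overexpression replicate 2 lay above 2 of the 3 controls. The log2 difference was -0.29 (SE 0.21, 95% interval -0.76 to 0.18).

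Among the 10 genes, 3 had groups that did not overlap (VGLL1 and TEAD1 lower, WWTR1 higher), beside 18.0% of all genes. Nothing is read from this count, since it comes from the contrast that was known when the genes were picked. The median log2 difference of the 10 genes was -0.21 and that of all 10487 genes was 9.8e-05.

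**Figure D3:**
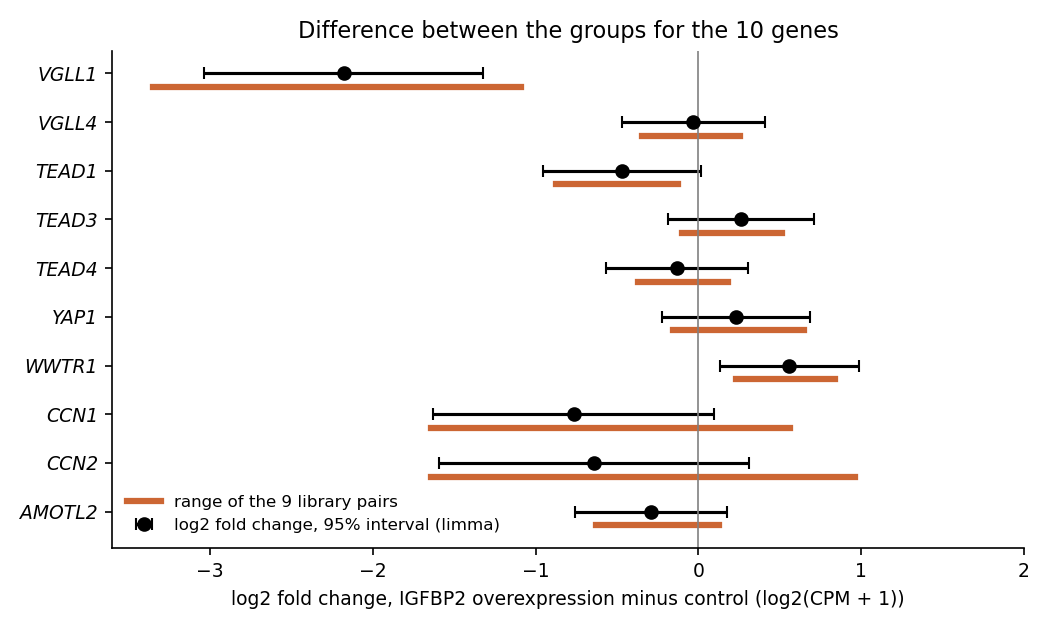
Difference between the groups for each of the 10 genes (log2 fold change on log2(CPM + 1) values, IGFBP2 overexpression minus control). Points and thin bars give the limma estimate with its 95% interval and orange bars the range over the 9 library pairs. Both ranges lie below 0 for VGLL1 and above 0 for WWTR1, and the pair ranges of CCN1 and CCN2 reach from -1.64 to 0.56 and to 0.96. The intervals are not adjusted for the number of genes, and WWTR1 was not called by limma.

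Target genes outside the 10 showed no common direction. Of 19 further YAP and TAZ target genes, 16 had a row, and AXL, FOXF2 and RBMS3 were not analysed here. F3 and IGFBP3 passed the limma threshold, both higher (0.429% of all genes were called higher), and 0 were called lower. The lists of target and Hippo genes were chosen with earlier results of these data known. Their calls and p-values are therefore descriptions and no independent test. In all, 9 of the 16 had a positive and 7 a negative difference, with a median of 0.05 and a range from -0.84 to 2.91 on the log2 scale.

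F3, tissue factor, which starts coagulation, was at 7.33, 5.84 and 6.47 CPM in the controls and at 61.2, 47.1 and 27.9 CPM in the overexpression libraries (log2 difference 2.56, SE 0.28, limma adjusted p = 0.0102). IGFBP3, another binding protein of insulin-like growth factors, was at 51.3, 21.1 and 22.2 CPM against 381, 299 and 98.5 CPM (log2 difference 2.91, SE 0.51, limma adjusted p = 0.0490). In both genes overexpression replicate 3 was the library nearest to the controls. F3 was called under all 15 alternative settings and IGFBP3 under 9, with the IGFBP3 call lost without control replicate 2 or 3 and without overexpression replicate 1 or 2 (log2 difference 2.53 to 3.50 over the alternatives). ANKRD1, which encodes an ankyrin repeat protein and is, with CCN1 and CCN2, among the most used YAP targets, was at 12.2, 14.2 and 10.1 CPM against 4.68, 6.13 and 8.54 CPM. Its groups did not overlap, and its log2 difference of -0.84 (SE 0.24) did not pass the threshold (limma adjusted p = 0.195). CCN1, CCN2, ANKRD1 and AMOTL2 thus had negative differences, F3 and IGFBP3 positive ones.

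In the upstream Hippo pathway the differences were mostly small. Of 69 further genes 59 had a row, and limma called 0 of them in either direction, while 8 had an unadjusted p under 0.05 (2 higher, 6 lower), beside 13.0% of all genes. Their groups did not overlap in 9 of the 59 (15.3%, beside 18.0% of all genes), and their median log2 difference was -0.03, within a range of -1.38 to 1.03.

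In the kinase core, which phosphorylates YAP and TAZ, 0 of 16 such genes were called by limma, beside 0.629% of all genes, and 1 (6.25%) had an unadjusted p under 0.05, beside 13.0%. That gene was TAOK1, a kinase upstream of the MST kinases, with a log2 difference of -0.48 (limma adjusted p = 0.334). The LATS kinases had differences of opposite sign, -0.45 for LATS1 (limma adjusted p = 0.437) and 0.44 for LATS2 (limma adjusted p = 0.393). LATS2 is also a known YAP target and was counted with the targets.

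Among the junction, polarity and other upstream genes that feed into the pathway, 0 of 21 were called by limma, beside 0.629% of all genes. An unadjusted p under 0.05 was found for 7 of them (33.3%, beside 13.0% of all genes), 2 higher and 5 lower. WTIP, an Ajuba-family LIM protein that restrains LATS, was at 21.3, 20.0 and 13.3 CPM in the controls and at 45.2, 32.9 and 35.8 CPM in the overexpression libraries. Its groups did not overlap, with a log2 difference of 1.03 (limma adjusted p = 0.111). WTIP was called with a pseudocount of 5 and with a mean-variance trend. The related AJUBA and LIMD1 had negative log2 differences, -0.13 (limma adjusted p = 0.882) and -0.46 (limma adjusted p = 0.377). AMOT, the angiomotin related to AMOTL2, was at 54.4, 77.0 and 104 CPM against 35.1, 32.6 and 56.5 CPM. Its highest overexpression library lay just above its lowest control, and its log2 difference was -0.90 (limma adjusted p = 0.248). The related AMOTL1 had a log2 difference of 0.13 (limma adjusted p = 0.805). RASSF2, a scaffold that binds MST kinases, had a log2 difference of -1.38 (limma adjusted p = 0.233), from as few as 7 reads in a library, and it was called with a replicate block.

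In the STRIPAK phosphatase complex and the turnover machinery, which act on MST kinases and on YAP and TAZ, 0 of 22 genes were called by limma (0.629% of all genes were) and 0 had an unadjusted p under 0.05 (13.0% of all genes had). The 3 genes with the smallest p had differences of -0.35 for CSNK1E (limma adjusted p = 0.536), a casein kinase, 0.28 for STK26 (limma adjusted p = 0.605), and -0.31 for STRN3 (limma adjusted p = 0.623), a striatin of the complex.

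**Figure D4:**
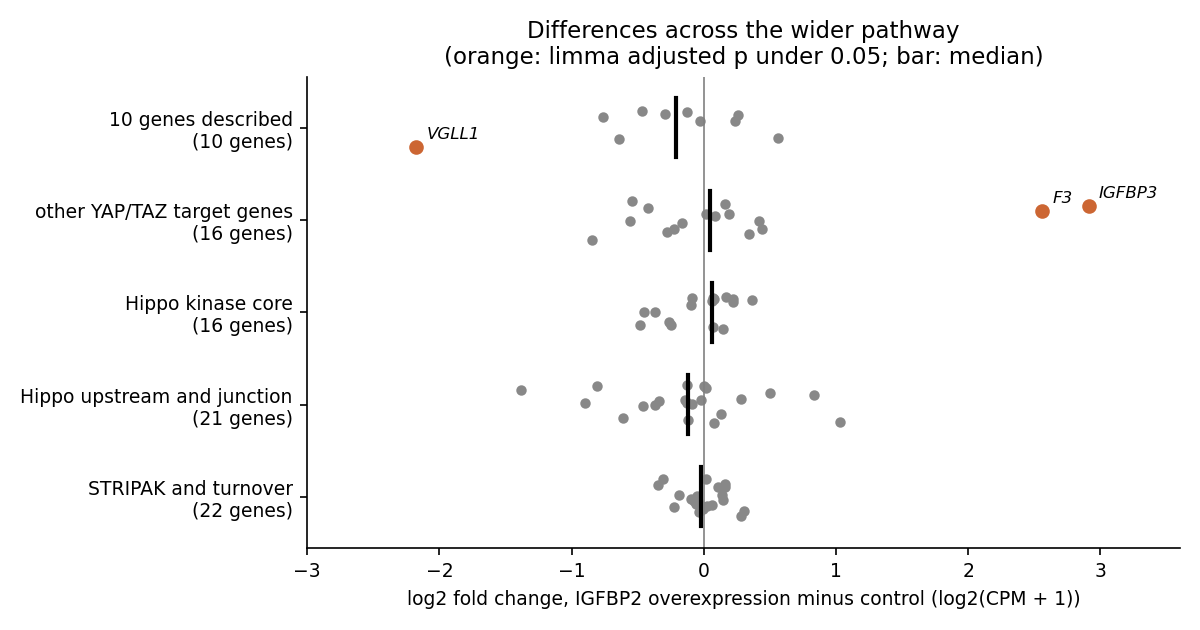
Log2 fold change (log2(CPM + 1), IGFBP2 overexpression minus control) of the 10 genes and of the other pathway genes with a row, 1 point per gene and a bar at the median of each list. Orange points have a limma adjusted p under 0.05. VGLL1 at -2.18, F3 at 2.56 and IGFBP3 at 2.91 are the called genes, and the STRIPAK and turnover genes lie between -0.35 and 0.30. VGLL1 was picked for its low level in these libraries, so its call is no test of it. The lists were chosen with earlier results known, so the other calls are descriptions.

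The genes whose 6 centred log2 values were most like those of VGLL1 were CELF2, KIF5C, ELF5, NPR3 and MYH14, with root mean square differences of 0.346, 0.348, 0.350, 0.362 and 0.377 over the 6 libraries. CELF2 is an RNA-binding protein, KIF5C a kinesin heavy chain, ELF5 a transcription factor of the mammary luminal lineage, NPR3 the clearance receptor for natriuretic peptides and MYH14 a non-muscle myosin. Only NPR3 was well counted after activation, with 23 to 54 reads per library. CELF2, ELF5 and MYH14 had at most 6 reads there and KIF5C at most 15. Their means after activation were 1.13 to 2.89 CPM, so they passed the authors' filter of a mean CPM above 5 through the controls alone. NPR3 was at 84.8, 50.3 and 88.6 CPM in the controls and at 8.97, 9.36 and 17.7 CPM in the overexpression libraries. These genes were picked for their likeness to VGLL1. Their lower level after activation, and the high value of overexpression replicate 3 in NPR3, thus follow from the choice.

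Genes beside VGLL1 on the X chromosome were compared to place its difference in the region. Of 9 protein-coding genes that start within 500 kb of the VGLL1 start, 5 had a row, VGLL1 included. HTATSF1, a splicing-linked cofactor that starts 35.1 kb before VGLL1 on the same strand, was at 133, 126 and 140 CPM in the controls and at 95.9, 90.1 and 67.0 CPM in the overexpression libraries. Its groups did not overlap, and its log2 difference was -0.66 (SE 0.20, limma adjusted p = 0.223). The other three, MAP7D3, ARHGEF6 and RBMX, had log2 differences of -0.24, -1.26 and -0.31, and ARHGEF6 was at 1.64 to 11.3 CPM. All 4 neighbours had negative differences, as had 5241 of all 10487 genes. None of the 4 passed the threshold, and VGLL1 had the largest difference of the 5. ARHGEF6 has a row only through the controls (mean 8.65 CPM, against 2.82 CPM after activation), which favoured a negative sign. Genes of the window without a row could not be compared, and nothing is read from the shared sign. The last of the 5 exons of transcript VGLL1-201 (chrX:136556451-136556799) is where the annotation (GENCODE 44) places the 3′ end of this transcript.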

How the data were processed

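The 6 RNA libraries of MDAMB468 cells were 3 control and 3 IGFBP2 overexpression libraries. By the study's methods, bbduk trimmed the reads, STAR mapped them to hg38, HTSeq 0.9.1 gave reads per gene, and the authors scaled these with edgeR. Genes had to reach a mean CPM above 5 in a condition, and the authors deposited log2(CPM + 1). The strand setting of the counting is not given in the sources used here, and VGLL4, TEAD1, YAP1, WWTR1 and CCN2 have annotated genes on the opposite strand, none of which has a row.

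The log2 values were turned back to CPM, and 100% of them were whole reads (tolerance 0.001). Because the unit is log2, limma (3.58.1, R 4.3.3) without a trend was fitted to the values as deposited, over all 10487 genes, with Benjamini-Hochberg adjustment at 0.05. The fit was tested on simulated data. The p-values, standard errors and intervals of limma rest on the spread between these libraries, with variances moderated over all genes. Intervals on reads or shares cover counting error only. Symbols and positions came from GENCODE 44, which matched 10462 of the 10487 identifiers.

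Members and lists were chosen with earlier results of these data known. Named were the 10 genes, IGFBP2, the markers, the 5 genes most like VGLL1, and genes starting within 500 kb of it. From each pathway list the 3 non-members with the smallest p were named, which included every called one. AJUBA, LIMD1 and AMOTL1 were added as relatives of WTIP and AMOT. The alternatives were a pseudocount of 0.1 or 5, a mean-variance trend, voom, 3 other scalings, an average CPM over 10, a replicate block, and leaving out each library.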

Additional observations from a re-analysis of the deposited data

How the results depend on the processing

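VGLL1 was picked for its low level in these libraries, so the settings below describe how its value moved and do not test it. Its difference was past the threshold under 9 of 15 alternatives. With a pseudocount of 0.1 its log2 difference was -2.23 and the call was lost (0 members called). When 1 library was left out it ranged from -2.52 to -1.81, with 0 to 1 members called (1 without overexpression replicate 3 only). The further target genes called numbered 1 (F3) with a pseudocount of 0.1 and with library size only, and 1 to 2 with 1 library left out. The further Hippo genes called numbered 1 with a pseudocount of 5 and with the mean-variance trend (WTIP), 1 with the replicate block (RASSF2), and 0 with 1 library left out. Over all genes, 66 calls became 37 with a pseudocount of 0.1, 129 with a pseudocount of 5, 160 with the trend, 141 with voom, and 12 to 79 with 1 library left out, and the replicate block gave 55. VGLL4 turned to 0.11 without control replicate 2, within a range of -0.14 to 0.11 over the libraries left out. The other 8 members kept their direction under the alternatives run. The causes were not tested, beyond the fewer libraries of the left-out fits.

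Same-numbered libraries deviated together with correlations of 0.17, -0.06 and 0.08 across genes, so the numbers were not taken to pair the samples, although control replicates 1 and 3 were closest to the overexpression library of their own number and control replicate 2 was closest to overexpression replicate 3. Other scalings moved the median of all genes by at most 0.02 on the log2 scale. With 3 libraries a group, genes of 100 reads or fewer carried counting errors of the size of the smaller differences reported for the TEAD genes.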

Other observations

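Overexpression replicate 3 was the library of its group nearest to the control mean in 39 of the 66 genes called over the whole table. The nearest was replicate 1 in 14 and replicate 2 in 13. In 5 of the 10 genes described here it was replicate 3. The share over all genes was not computed, so nothing is read from these counts. IGFBP2 itself was lowest in overexpression replicate 3, at 498 CPM, close to the 566 CPM of replicate 1. Replicate 2 had the highest IGFBP2 level, 1176 CPM. A relation of the counts to the IGFBP2 level was not tested. The VGLL1 difference between libraries of the same replicate number was -2.10, -2.22 and -2.22 on the log2 scale, a narrower range than over all 9 pairs, although the numbers were not shown to pair the samples. The 10 epithelial and basal markers with a row had 5 positive and 5 negative log2 differences, with a median of 0.01. Among them KRT6B, a keratin of basal and stressed epithelium, had the largest log2 difference, 1.65, and it did not pass the limma threshold (adjusted p = 0.0638).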
